A study of Mus musculus with 9 samples.

Results

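Mesenchymal cells that carried the surface protein SCA1 were sorted from bone and from truncal skin, and their RNA was sequenced in 3 libraries per tissue. These libraries were chosen by their titles and labelled tissue, with no measured value in the choice, and they are 6 of the 9 libraries of a study that also holds thymus mesenchyme. All mice were C57BL/6, with no allele, agent or treatment named in the labels, and all were aged 3 to 4 weeks. Bone cells came from femur, tibia and pelvis, and skin cells from the dermis of abdomen and back. In both tissues the sorted cells were positive for SCA1 and negative for a cocktail against CD31, EpCAM, TER119, CD41, CD45, B220, CD2, CD4, GR-1 and CD11b, which mark endothelial, epithelial and blood cells. Per the labels' protocols, bone fragments were digested with enzymes, the remainder was crushed gently in a mortar, and red cells were lysed. How skin was digested remains not given in the sources used here; preparation and tissue cannot be told apart. The labels name neither the number of mice in a library nor separate mice for the 3 libraries, and p-values reflect only how far these libraries vary, a spread that may be technical. Each library is a bulk population, in which fewer cells of a type and less RNA per cell cannot be told apart.

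SCA1 is encoded by Ly6a and is used in many tissues to enrich stromal progenitors. In bone it marks stromal cells of the periosteum, the joint surface and the sheath of arterioles, which can give rise to cartilage, bone and fat. In skin it marks fibroblasts of the lower dermis and the fascia, the cells that lay down the collagen and elastic fibres of the dermis. Fibroblasts of different body sites also keep the Hox gene pattern of the place where they arose in the embryo.

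Gene reads per library ranged from 78757872 to 116759235. The fibrillar collagen genes Col1a1, Col1a2 and Col3a1 together took 24.4 ± 0.774% of gene reads in skin and 6.64 ± 0.340% in bone (SD, n = 3), with no overlap between the groups. Levels are given in CPM, reads per 1000000 of a library size corrected for composition by TMM, and differences as log2 of bone over skin with an SE. The test (edgeR's quasi-likelihood test, Benjamini-Hochberg threshold 0.05) took 14891 genes, of which 3625 were higher in bone (24.3%) and 3534 were lower (23.7%). List counts below are to be read against these shares. Scaling by library size alone moved the median of all genes toward bone by 0.68 on the log2 scale and gave 7297 higher and 1349 lower, so each direction here is relative to the bulk of genes. Of the genes named below that did not pass the test, Cilp, Col4a1, Fos, Gli1, Itgb1, Itga2b, Pdgfra, Pdgfrb, Igf2 and Wif1 passed as higher in bone by library size alone. By size, 2507 genes were higher and 1774 lower by at least 2-fold, and 273 and 170 by at least 100-fold. The median log2 difference of all genes tested was 0.03. Libraries of 1 tissue correlated across genes, which are not independent replicates, at r = 0.920 to 0.973, and libraries of different tissues at 0.753 to 0.788.

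**Figure D1:**
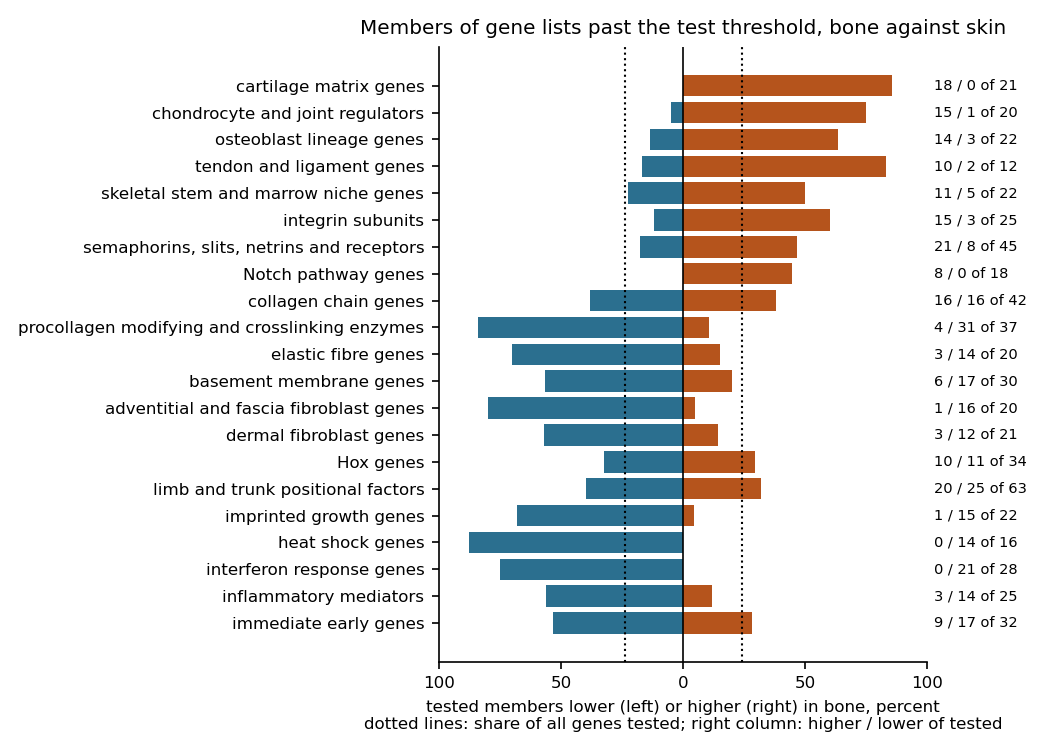
Share of the tested members of gene lists that were higher (right, orange) or lower (left, blue) in bone than in skin, with the counts beside the bars and dotted lines at the shares of all genes tested (24.3% and 23.7%). Cartilage, tendon and joint lists lie to the right and procollagen enzyme, adventitial and heat shock lists to the left; by library size alone the balance of the Hox, positional and immediate early lists turned, and that of the even collagen list moved, to more members higher.

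Genes of cartilage matrix made up the list with the highest median difference among the skeletal lists. Of 21 tested members 18 were higher in bone and 0 lower, against 24.3% of all genes higher, with a median log2 difference of 6.02. Col10a1, the collagen of hypertrophic cartilage, stood at 296, 805 and 517 CPM in bone and 0.0106, 0 and 0.0429 CPM in skin. Comp, which binds collagen fibrils in cartilage and tendon, reached 989, 988 and 1124 CPM in bone and 0.0530, 0.327 and 0.333 CPM in skin. Col2a1, the main collagen of hyaline cartilage, was present at 195, 287 and 139 CPM in bone and 0.615, 0.0272 and 0.0965 CPM in skin. For these 3 genes every bone library lay above every skin library, with log2 differences of 14.69 ± 0.70, 12.11 ± 0.51 and 9.64 ± 0.80 and adjusted p-values of 5.07e-06, 1.9e-06 and 6.65e-05. The large proteoglycan of cartilage, aggrecan (Acan), was measured at 125, 196 and 171 CPM in bone and 1.81, 1.56 and 0.998 CPM in skin (log2 difference 6.82 ± 0.29). Cilp, a matrix protein of the middle zone of cartilage, was the exception by level. It was measured at 618, 755 and 917 CPM in bone and 503, 848 and 649 CPM in skin, the groups overlapped, and its log2 difference of 0.19 ± 0.22 did not pass the test (adjusted p = 0.492).

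The gene of the joint lubricant stood far apart between the tissues. Prg4, which encodes lubricin of synovial lining and superficial cartilage, reached 41143, 26338 and 40762 CPM in bone and 11.7, 18.1 and 36.4 CPM in skin. Every bone library lay above every skin library, with a log2 difference of 10.67 ± 0.59 (adjusted p = 6.98e-06). In the authors' RPKM values, which are per length, Prg4 averaged 7807 in bone and 2.46 in skin. Regulators of the chondrocyte and joint lineage followed, with 15 of 20 tested members higher and 1 lower (median 3.60), the lower count being 2 without bone 3. Sox9, the master factor of cartilage, was at 48.6, 48.8 and 58.98 CPM in bone and 7.18, 11.2 and 9.80 CPM in skin (log2 difference 2.47 ± 0.19). Its partner Sox6 differed by 5.204 ± 0.25 and Trps1, a zinc finger repressor of the growth plate, by 6.83 ± 0.54. The joint morphogen Gdf5 was low in both tissues, at 3.58, 3.18 and 2.52 CPM in bone and 0.170, 0.0272 and 0.0215 CPM in skin, and still passed the test (log2 difference 5.36 ± 0.91). Pth1r, the receptor for parathyroid hormone and its related peptide, was the member lower in bone, at 23.4, 32.3 and 24.9 CPM in bone and 69.7, 72.6 and 51.6 CPM in skin (log2 difference -1.26 ± 0.18), whereas its ligand gene Pthlh was higher by 4.56 ± 0.24.

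The osteoblast list counted 14 of 22 tested members higher in bone and 3 lower, with a median of 3.17, also with genes at 0 reads set to their bound, and 15 and 1 by library size alone. The early factors were detected in skin too. Runx2, which commits cells to bone formation, was at 35.3, 62.2 and 33.6 CPM in bone and 2.02, 2.86 and 3.28 CPM in skin (log2 difference 4.01 ± 0.31). Sp7, which acts after it, was at 6.57, 11.2 and 6.21 CPM in bone and 1.40, 0.721 and 1.65 CPM in skin (log2 difference 2.67 ± 0.42). Matrix genes of mature osteoblasts were near or at 0 in skin. Ibsp, which encodes bone sialoprotein, was at 59.04, 268 and 89.02 CPM in bone with 0 reads in skin, at least 12689-fold higher (adjusted p = 0.00043). Spp1, the gene of osteopontin, stood at 287, 636 and 357 CPM in bone and 0.350, 0.190 and 0.0858 CPM in skin (log2 difference 10.98 ± 0.57). Mmp13, a collagenase of osteoblasts and hypertrophic chondrocytes, was at 261, 1074 and 439 CPM in bone and 0, 0 and 0.107 CPM in skin (log2 difference 13.87 ± 1.03). Bglap, the gene of osteocalcin, was at 6.88, 5.59 and 7.51 CPM in bone and at 1 to 3 reads over the skin libraries, a ratio of 573 with a 95% counting interval of 196 to 2780.2. Bglap and its neighbour Bglap2 are near-identical copies, so the reads of each are uncertain. The exceptions were Smpd3, a sphingomyelinase needed for mineralisation, at 31.2, 50.002 and 13.5 CPM in bone and 389.9, 572 and 403 CPM in skin (log2 difference -3.85 ± 0.47), and Cthrc1, a secreted collagen-triple-helix protein, lower in bone (log2 difference -1.01 ± 0.18) and not past the test by library size alone (adjusted p = 0.139). Sost, the osteocyte inhibitor of Wnt signalling, was at 0 reads in bone and at 0.138, 0.408 and 0.150 CPM in skin, low but above the floor of 3 reads. Its call was lost without bone 2, bone 3 or any 1 skin library (adjusted p 0.0647 to 0.176).

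The bone libraries differed among themselves in this programme. Bone 2 held the highest level of Mmp13, Ibsp, Spp1, Col10a1, Runx2, Sp7 and Alpl, where Alpl encodes the phosphatase of mineralising cells and was at 40.8, 79.8 and 37.3 CPM in bone and 3.23, 3.90 and 6.25 CPM in skin. The summed level of the osteoblast list was 974, 2417 and 1194 CPM in bone and 638, 815 and 659 CPM in skin. Prg4 went the other way, with its lowest bone level in bone 2. Leaving out bone 2 left 13 members of the osteoblast list higher and 2 lower, and 19 and 0 of the cartilage list.

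The promoters of Mmp13 and Col10a1 are shown because both genes were near 0 in skin and among the 15 largest differences, and both hold the letters of a TATA box close to the start of transcription. The 250 bases upstream of the start are given 5′ to 3′ on the gene's strand, from RefSeq on GRCm38.p6, the mm10 build, with TATAAA and the RUNX core TGTGGT or its reverse complement ACCACA in capitals. The Mmp13 stretch lies at chr9:7272264-7272513 on the plus strand, and the Col10a1 stretch at chr10:34389731-34389980 on the plus strand.
Mmp13: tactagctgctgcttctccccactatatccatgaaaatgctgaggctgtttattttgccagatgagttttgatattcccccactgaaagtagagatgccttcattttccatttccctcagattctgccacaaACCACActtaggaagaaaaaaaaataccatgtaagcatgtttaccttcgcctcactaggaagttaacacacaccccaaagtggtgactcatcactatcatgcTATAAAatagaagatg
Col10a1: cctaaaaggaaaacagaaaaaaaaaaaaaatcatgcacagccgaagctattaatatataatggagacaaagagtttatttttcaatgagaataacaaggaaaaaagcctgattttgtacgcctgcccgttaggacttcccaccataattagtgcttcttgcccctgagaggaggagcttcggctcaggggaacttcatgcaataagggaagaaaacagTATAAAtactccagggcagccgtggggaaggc
Searched on both strands of these 250 bases, TATAAA was found in 7 of 16 promoters of osteoblast list genes (43.8%), in 3 of 20 of the cartilage list (15%) and in 12.4% of all 32851 promoters. The letters TGTGGT were found in 5 of 16 promoters of the osteoblast list (31.2%), in 4 of 20 of the cartilage list (20%) and in 14% of all promoters. The searched letters of these motifs do not overlap one another. A match is a description of the letters in this window and does not show a bound site.

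**Figure D2:**
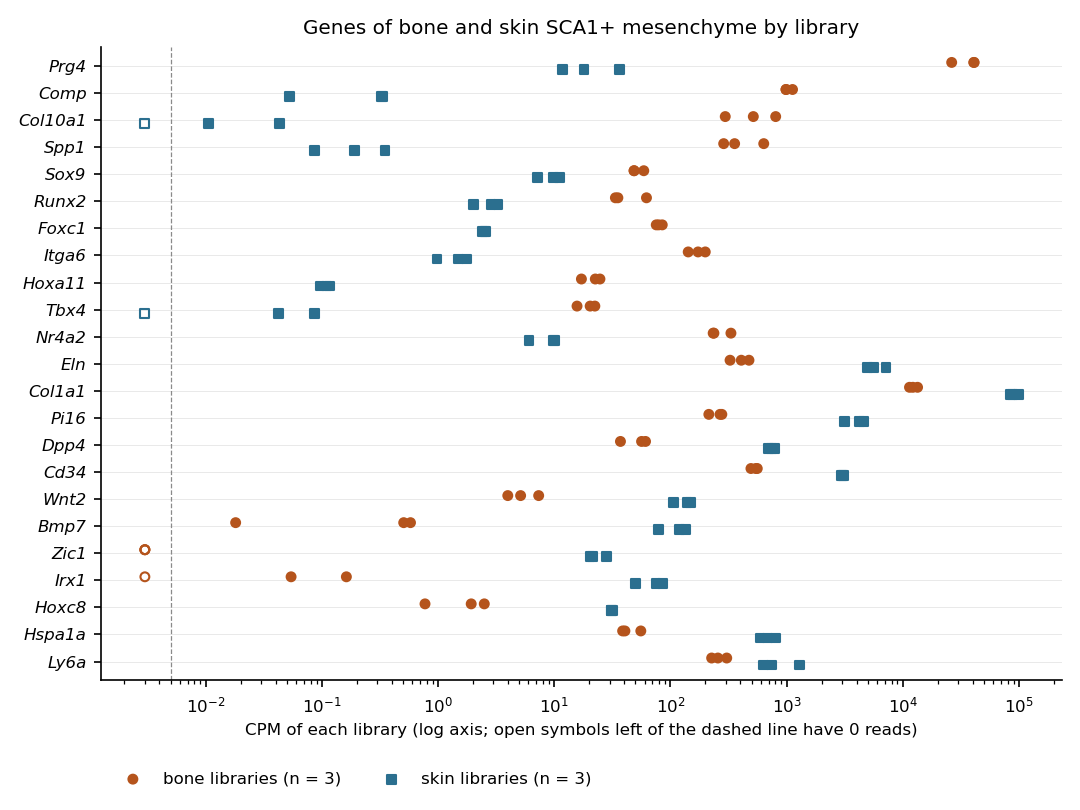
Level of single genes in each bone (orange circles) and skin (blue squares) library in CPM on a log axis, with libraries at 0 reads drawn as open symbols left of the dashed line. The genes in the upper part lie higher in all 3 bone libraries and those in the lower part in all 3 skin libraries; Prg4 spans from 11.7 CPM in skin 1 to 41143 CPM in a bone library.

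Tendon and ligament genes were likewise higher in bone. The list had 10 of 12 members higher and 2 lower (median 2.97), or 10 and 1 by library size alone. Fmod, a proteoglycan that controls collagen fibril assembly in tendon, was at 509, 925 and 874 CPM in bone and 30.1, 44.8 and 23.5 CPM in skin (log2 difference 4.55 ± 0.33). Tnc, an anti-adhesive glycoprotein of tendon, periosteum and wounds, was at 347, 513 and 586 CPM in bone and 14.4, 30.1 and 17.1 CPM in skin (log2 difference 4.56 ± 0.34). Tnmd, a membrane protein of mature tenocytes, was at 58.9, 48.8 and 58.8 CPM in bone and 9.34, 11.2 and 9.79 CPM in skin (log2 difference 2.46 ± 0.15). The tendon factor Scx was low in both, at 4.01, 3.63 and 4.63 CPM in bone and 0.445, 0.109 and 0 CPM in skin (log2 difference 4.45 ± 1.15), with its call lost without skin 2 (adjusted p = 0.0551). Both members lower in bone, Col14a1 and Lox, are also genes of dermal collagen. Col14a1, a fibril-associated collagen, was at 905, 862 and 783 CPM in bone and 4146, 3857 and 2888 CPM in skin, the reverse of the rest of the list.

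Genes of skeletal stem cells and the marrow niche numbered 11 of 22 members higher and 5 lower, with a median of 0.82, and 17 and 1 by library size alone. Foxc1, a forkhead factor of the marrow niche, was at 85.04, 75.5 and 79.2 CPM in bone and 2.49, 2.42 and 2.57 CPM in skin (log2 difference 5.000 ± 0.14, adjusted p = 1.6e-07). Cxcl12, the chemokine that holds blood stem cells in marrow, was abundant in both tissues, at 1021, 872 and 814 CPM in bone and 305, 421 and 279 CPM in skin (log2 difference 1.43 ± 0.18). Lepr, the leptin receptor that marks marrow stroma, was at 169, 179.6 and 125 CPM in bone and 32.3, 33.7 and 41.1 CPM in skin (log2 difference 2.14 ± 0.17). Nes, an intermediate filament of perivascular stroma, differed by 2.98 ± 0.47. Grem1, a BMP antagonist that marks skeletal stem cells, was low, at 2.34, 2.86 and 0.834 CPM in bone and 0.0106, 0 and 0.0322 CPM in skin (log2 difference 6.96 ± 1.19). The growth factor gene Csf1, which sustains macrophages and osteoclasts, was lower in bone, at 267, 202 and 244 CPM in bone and 645, 760.1 and 782 CPM in skin (log2 difference -1.62 ± 0.15).

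Skin libraries carried the genes of adventitial and fascia fibroblasts. Of 20 tested members 16 were lower in bone and 1 higher, with a median of -1.73 (14 and 3 by library size alone). The higher count was 0 without bone 1, skin 1 or skin 2 and 2 without skin 3. Pi16, a peptidase inhibitor of progenitor-like fibroblasts around vessels and in fascia, was at 277, 214 and 267 CPM in bone and 3151, 4229 and 4571 CPM in skin (log2 difference -3.98 ± 0.20). Cd34, a sialomucin of the same cells, was at 559, 544 and 493 CPM in bone and 3035, 3096 and 2974 CPM in skin (log2 difference -2.51 ± 0.14). For both genes each skin library lay above each bone library. The secreted signals Wnt2 and Bmp7 differed more, though other ligands were higher in bone, as given below. Wnt2 was at 7.35, 5.14 and 3.98 CPM in bone and 107, 139 and 148 CPM in skin (log2 difference -4.58 ± 0.25). Bmp7 was at 0.0181, 0.507 and 0.579 CPM in bone and 119, 135 and 79.6 CPM in skin (log2 difference -8.24 ± 0.75).

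Genes of dermal fibroblasts leaned the same way, with 12 of 21 members lower in bone and 3 higher (median -1.13). By library size alone 9 were lower and 7 higher, and the higher count was 5 without skin 3. Dpp4, the surface peptidase CD26 of fibroblasts in the upper dermis and fascia, was at 61.1, 56.5 and 37.2 CPM in bone and 735, 694 and 781 CPM in skin (log2 difference -3.84 ± 0.21). En1, a homeobox factor of trunk dermis, was at 2.28, 0.691 and 1.57 CPM in bone and 46.4, 51.8 and 56.9 CPM in skin (log2 difference -5.10 ± 0.41). Twist2, a dermal helix-loop-helix factor, was at 5.96, 6.10 and 5.39 CPM in bone and 48.5, 60.5 and 50.2 CPM in skin (log2 difference -3.19 ± 0.16). Apcdd1, a membrane inhibitor of Wnt signalling, differed by -3.98 ± 0.22. Dpt, a small matrix protein of the dermis, was abundant in both, at 794, 602 and 677 CPM in bone and 2209, 2502 and 2855 CPM in skin (log2 difference -1.87 ± 0.17). Fbln7, an adhesion protein of the fibulin family, was higher in bone, at 183, 171 and 190.2 CPM in bone and 8.24, 13.3 and 15.7 CPM in skin (log2 difference 3.87 ± 0.23).

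Hair follicle mesenchyme genes did not lean to skin as a list: 10 of 23 tested members were higher in bone and 3 lower (median 0.99), or 14 and 2 by library size alone. The members that moved to bone included Prom1, a membrane glycoprotein, at 20.5, 13.1 and 10.8 CPM in bone and 0.0636, 0.163 and 0.161 CPM in skin (log2 difference 6.84 ± 0.47). Rspo2, a secreted enhancer of Wnt signalling, was at 59.8, 44.5 and 43.4 CPM in bone and 9.76, 4.64 and 9.18 CPM in skin (log2 difference 2.64 ± 0.29). Enpp2, which makes lysophosphatidic acid, differed by 3.40 ± 0.20. Corin, a serine protease of the dermal papilla, was at 0.109, 0 and 0 CPM in bone and 0.615, 2.61 and 40.2 CPM in skin (log2 difference -8.60 ± 2.05), and its skin level came mostly from skin 3. Skin 3 also held the most Wif1, a Wnt inhibitor, at 20.1, 23.6 and 27.2 CPM in bone and 3.13, 3.62 and 19.3 CPM in skin, which did not pass the test (adjusted p = 0.116) and passed it as higher in bone without skin 3 (adjusted p = 1.17e-05).

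Adipocyte lineage genes were divided, with 5 of 23 tested members higher in bone (21.7%) and 8 lower (34.8%), against 24.3% and 23.7% of all genes tested. The median was -0.37, and the balance turned to 8 and 4 by library size alone. Cebpd and Cebpb, early factors of fat cell formation that also respond to stress, were lower in bone, with log2 differences of -2.63 ± 0.24 and -1.84 ± 0.24. Pparg, the master factor of adipocytes, was at 4.53, 8.61 and 3.55 CPM in bone and 6.90, 8.56 and 5.75 CPM in skin, with overlapping groups and an adjusted p of 0.47. Adipoq, the gene of adiponectin, was at 4.11, 6.27 and 2.59 CPM in bone and 0.223, 0.367 and 0.461 CPM in skin (log2 difference 3.62 ± 0.56).

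Collagen genes divided evenly in number and unevenly in level. Of 42 tested chains 16 were higher in bone and 16 lower (median 0.27), and by library size alone 22 and 11. The summed level of the 44 chains was 74849 to 79281 CPM in bone and 337958 to 387869 CPM in skin. The fibrillar chains of dermis were lower in bone. Col1a1 was at 11419.8, 13395 and 12209 CPM in bone and 88551, 98669.6 and 85124 CPM in skin (log2 difference -2.88 ± 0.16). Col1a2 differed by -2.44 ± 0.15 and Col3a1 by -2.46 ± 0.15. Per length, in RPKM, Col3a1 averaged 4769 in bone and 18029 in skin, and Col1a1 2712 and 13909. The RPKM of the authors carries no correction for composition. Type V and type VI chains, which seed fibrils and form beaded filaments, were lower in bone too: Col5a1 differed by -2.12 ± 0.18, Col5a3 by -1.53 ± 0.14 and Col6a3 by -1.26 ± 0.16 on the log2 scale.

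Several chains were higher in bone. Col22a1, a chain of tissue junctions such as muscle with tendon and cartilage with joint fluid, was at 953, 558 and 763 CPM in bone and 0.170, 0.163 and 0.118 CPM in skin (log2 difference 12.29 ± 0.33, adjusted p = 1.6e-07). Col8a1, a short chain of network collagen, was at 321, 402 and 285 CPM in bone and 9.88, 16.5 and 14.1 CPM in skin (log2 difference 4.64 ± 0.24). Col12a1, which decorates fibrils of tendon and periosteum, was at 572, 1357 and 862 CPM in bone and 138, 152 and 147 CPM in skin (log2 difference 2.67 ± 0.29). Col11a1, a partner of type II collagen, was at 175, 411 and 223 CPM in bone and 12.2, 13.1 and 23.7 CPM in skin (log2 difference 4.04 ± 0.42). The type IX chains Col9a1, Col9a2 and Col9a3 differed by 6.77 ± 1.07, 3.74 ± 0.60 and 3.56 ± 0.37. Basement membrane chains stood between: Col4a1 was at 1586, 1433 and 1334 CPM in bone and 746, 1418 and 1248 CPM in skin and did not pass the test (log2 difference 0.35 ± 0.22, adjusted p = 0.23), while Col4a3 and Col4a4 were lower in bone, with log2 differences of -2.33 ± 0.36 and -3.29 ± 0.49.

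**Figure D3:**
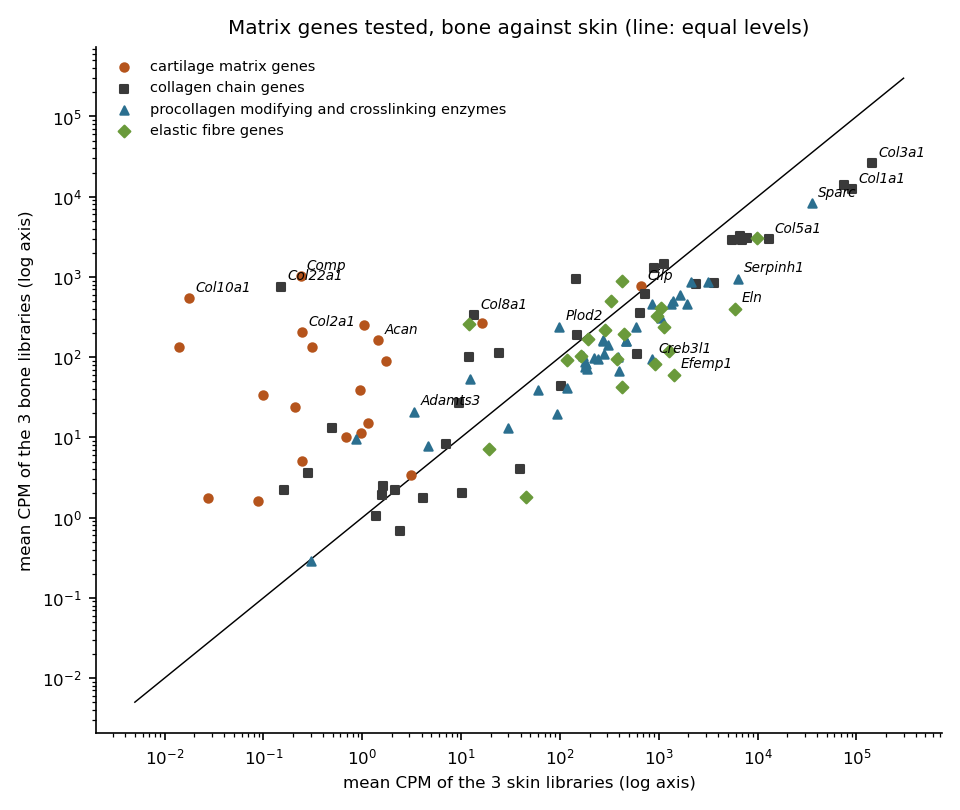
Mean CPM of 3 bone libraries (vertical) against 3 skin libraries (horizontal) for tested genes of 4 matrix lists with reads in both tissues, on log axes, with a line at equal levels. Cartilage genes (orange circles) lie above the line, most procollagen enzymes (blue triangles) and elastic fibre genes (green diamonds) below it, and collagen chains (dark squares) on both sides.

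Enzymes and chaperones that modify, process and crosslink procollagen were mostly lower in bone, as the dermal collagens were. Of 37 members 31 were lower in bone and 4 higher, with a median of -1.29, and 25 and 5 by library size alone. Serpinh1, the collagen chaperone of the endoplasmic reticulum, was at 899, 1072 and 881 CPM in bone and 7124, 7098 and 4601 CPM in skin (log2 difference -2.72 ± 0.21). Creb3l1, a membrane-bound factor that drives secretory and collagen genes, was at 88.6, 96.7 and 97.6 CPM in bone and 893, 940.4 and 745 CPM in skin (log2 difference -3.19 ± 0.15). Sparc, which binds procollagen outside the cell, was at 8466, 8272 and 8369.9 CPM in bone and 31763, 39219 and 35254 CPM in skin (log2 difference -2.08 ± 0.15). The 4 members higher in bone were Plod2, P4ha3, Adamts3 and Leprel1. Plod2, the lysyl hydroxylase of the telopeptides that sets the type of crosslink in bone and cartilage, was at 197, 229.5 and 294 CPM in bone and 113, 79.8 and 102 CPM in skin (log2 difference 1.29 ± 0.19). Adamts3, which removes the amino propeptide of type II procollagen, differed by 2.65 ± 0.24. The prolyl hydroxylases P4ha3 and Leprel1, which add hydroxyl groups to the collagen helix, differed by 2.10 ± 0.20 and 3.47 ± 0.36.

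Elastic fibre genes were also lower in bone, 14 of 20 members, with 3 higher and a median of -1.49. Eln, which encodes elastin, was at 407, 474 and 326 CPM in bone and 4945, 7169 and 5575 CPM in skin (log2 difference -3.87 ± 0.22). Efemp1, the fibulin of elastic fascia, was at 68.3, 64.6 and 49.2 CPM in bone and 1386, 1391 and 1528 CPM in skin (log2 difference -4.56 ± 0.18, adjusted p = 5.62e-07). Fbn1, the fibrillin of microfibrils, was at 2987, 2939 and 3313 CPM in bone and 11316, 10159 and 8197 CPM in skin (log2 difference -1.68 ± 0.17). The exception by size was Ltbp2, a fibrillin-like protein of microfibrils, at 246, 260.3 and 265 CPM in bone and 7.61, 16.1 and 12.3 CPM in skin (log2 difference 4.42 ± 0.27).

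Basement membrane genes numbered 17 lower in bone and 6 higher of 30 tested (median -0.90), or 12 and 11 by library size alone. Nid1, the linker between laminin and collagen networks, was at 931, 1035 and 755 CPM in bone and 4609, 5858 and 5791 CPM in skin (log2 difference -2.58 ± 0.18), and the laminin chain Lamc1 differed by -2.14 ± 0.14. Sparcl1, a relative of Sparc, went to bone, at 803, 598 and 752 CPM in bone and 41.7, 74.3 and 58.7 CPM in skin (log2 difference 3.62 ± 0.24). Small leucine-rich proteoglycans leaned to bone, with 8 of 15 members higher and 2 lower (median 0.92), or 10 and 0 by library size alone. The lower count was 4 without skin 1 and 5 under DESeq2. Decorin (Dcn), which coats collagen fibrils, was at 5477, 5279 and 6101 CPM in bone and 5949, 7581 and 8373 CPM in skin, with overlapping groups and an adjusted p of 0.0908, passing as lower in bone without skin 1 (adjusted p = 0.0213) and in DESeq2 (adjusted p = 0.0256). Biglycan (Bgn), its relative in bone and cartilage, was at 3848, 4018 and 4093 CPM in bone and 1403, 2203 and 2424 CPM in skin (log2 difference 0.99 ± 0.20). Adhesive glycoproteins leaned to bone as well, with 14 of 28 members higher and 6 lower (median 0.71). Tnn, tenascin-W of periosteum and tendon, was at 66.8, 225 and 119 CPM in bone and 0.276, 0.299 and 0.569 CPM in skin (log2 difference 8.47 ± 0.61). Fn1, the gene of fibronectin, was at 36447, 29952 and 37518 CPM in bone and 20017, 22261 and 14972 CPM in skin (log2 difference 0.86 ± 0.19). Periostin (Postn) was lower in bone, at 1303, 1607 and 880.3 CPM in bone and 7629.9, 7065 and 5815 CPM in skin (log2 difference -2.44 ± 0.23).

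Matrix metalloproteinases and their inhibitors had 6 of 21 members higher in bone and 9 lower (median -0.29), and 8 and 6 by library size alone. The members higher in bone besides Mmp13 included Mmp8 and Mmp9, collagenase and gelatinase of neutrophils and osteoclasts, with Mmp9 at 81.5, 93.9 and 85.2 CPM in bone and 0.901, 0.381 and 0.611 CPM in skin (log2 difference 7.08 ± 0.29). Mmp23, a membrane-bound enzyme, was lower in bone, at 26.8, 29.8 and 21.2 CPM in bone and 216, 259.9 and 248 CPM in skin (log2 difference -3.22 ± 0.16). Timp3, an inhibitor held in the matrix, was lower by 1.21 ± 0.14.

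Hox genes, which keep a record of body position, differed by cluster. Of 34 tested Hox genes 10 were higher in bone and 11 lower (median -0.30), and by library size alone 12 and 10, so the balance of the counts turned with the scaling. Every called HoxB gene was lower in bone, every called HoxA and HoxD gene was higher, and called HoxC genes were lower in groups 4 to 9 and higher in group 11. Bone came from hindlimb and pelvis and skin from the trunk, so body site and tissue cannot be told apart. How the counting used strand stays not given in the sources used here, and neighbouring and antisense transcripts in these clusters may share reads, so each Hox value may include part of a neighbour's.

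Among genes higher in bone were posterior HoxA and HoxD genes, which pattern the limb segments. Hoxa11 was at 22.6, 17.1 and 24.7 CPM in bone and 0.117, 0.109 and 0.0965 CPM in skin (log2 difference 7.63 ± 0.30, adjusted p = 5.56e-07), with every bone library far above every skin library. Hoxa10 was present in both, at 46.3, 28.98 and 27.7 CPM in bone and 10.5, 8.91 and 13.2 CPM in skin (log2 difference 1.66 ± 0.24). Hoxd10 was at 5.18, 4.62 and 4.49 CPM in bone and 0.127, 0.190 and 0.150 CPM in skin (log2 difference 4.93 ± 0.48), Hoxd9 differed by 2.55 ± 0.26 and Hoxd11 by 6.30 ± 1.27. Hoxa13 was at 2.08, 1.66 and 2.22 CPM in bone with 0 reads in skin, at least 171-fold higher, and Hoxd13 at 1.81, 1.77 and 1.08 CPM with 0 reads in skin, at least 137-fold higher.

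Genes lower in bone were members of HoxB and HoxC. Hoxc8 was at 2.50, 1.93 and 0.773 CPM in bone and 30.9, 31.2 and 31.9 CPM in skin (log2 difference -4.17 ± 0.39). Hoxb2 was at 1.19, 1.13 and 0.630 CPM in bone and 24.9, 22.2 and 19.7 CPM in skin (log2 difference -4.50 ± 0.30). Hoxc6 was at 5.27, 6.95 and 4.22 CPM in bone and 31.9, 30.4 and 33.5 CPM in skin (log2 difference -2.54 ± 0.21). Hoxc9 was at 1.27, 3.64 and 2.34 CPM in bone and 21.2, 17.8 and 22.3 CPM in skin (log2 difference -3.08 ± 0.36). Hoxb6 was at 2.51, 2.64 and 2.54 CPM in skin with 0 reads in bone, at least 284-fold lower, and Hoxb9 at 1.17, 1.71 and 0.998 CPM in skin with 0 reads in bone, at least 139.9-fold lower. Hoxc10 was shared: it was at 20.2, 26.4 and 24.4 CPM in bone and 28.8, 25.2 and 30.2 CPM in skin, with overlapping groups and an adjusted p of 0.221. Per length, in RPKM, the highest Hox genes were Hoxc10, Hoxa11 and Hoxa10 in bone, with means of 13.4, 13.1 and 11.8, and Hoxc6, Hoxc10 and Hoxb2 in skin, with means of 15.1, 10.9 and 10.2.

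**Figure D4:**
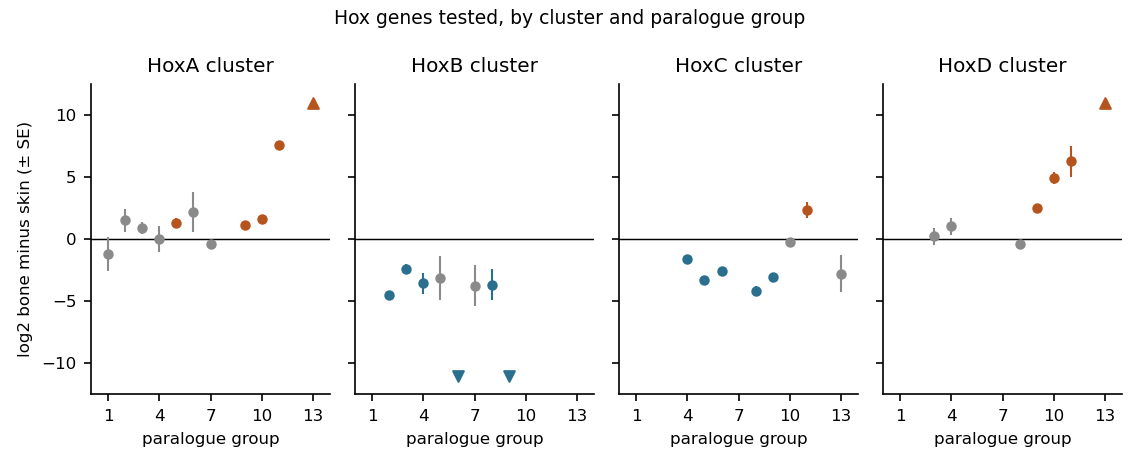
Log2 difference of bone minus skin (± SE) for the 34 tested Hox genes by paralogue group in the HoxA, HoxB, HoxC and HoxD clusters; orange is higher in bone, blue lower, grey not past the test, and triangles at the edge mark Hoxa13 and Hoxd13 (0 reads in skin) and Hoxb6 and Hoxb9 (0 reads in bone). Called HoxA and HoxD genes lie above 0, called HoxB genes below it, and HoxC genes turn from below 0 in groups 4 to 9 to above it in group 11.

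Other positional factors also differed in both directions. Of 63 tested members 20 were higher in bone and 25 lower (median -0.41), turning to 27 and 16 by library size alone. The hindlimb factors Pitx1 and Tbx4 were at 17.7, 17.5 and 22.3 CPM in bone and 0.382, 0.299 and 0.729 CPM in skin and at 15.7, 22.4 and 20.4 CPM in bone and 0.0424, 0 and 0.0858 CPM in skin (log2 differences 5.34 ± 0.37 and 8.71 ± 0.57). Tbx5, the forelimb relative of Tbx4, was lower in bone, at 2.10, 0.579 and 0.732 CPM in bone and 18.7, 18.04 and 22.3 CPM in skin (log2 difference -4.11 ± 0.49). Zic1, a zinc finger factor of dorsal trunk mesoderm, was at 28.2, 21.4 and 20.3 CPM in skin with 0 reads in bone, at least 2607-fold lower. Irx1, an Iroquois homeobox factor, was at 0.0544, 0 and 0.163 CPM in bone and 50.2, 75.2 and 85.3 CPM in skin (log2 difference -10.003 ± 0.66). Emx2, a homeobox factor of trunk and girdle, was at 4.81, 4.15 and 4.52 CPM in bone and 42.2, 35.3 and 36.3 CPM in skin (log2 difference -3.08 ± 0.16). Foxd1, a forkhead factor, was higher in bone by 5.33 ± 0.45, and Meox2, a factor of somites and vessels, by 2.64 ± 0.19.

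Wnt pathway genes were grouped as ligands, secreted modulators and target genes. Of 13 tested ligands 5 were lower in bone and 1 higher (median -0.84), or 4 and 2 by library size alone. Wnt10b, a ligand that favours bone over fat, was at 9.70, 8.94 and 8.42 CPM in bone and 36.1, 46.6 and 31.5 CPM in skin (log2 difference -2.08 ± 0.18). The ligand higher in bone was Wnt9a, a joint ligand, at 49.4, 36.8 and 44.7 CPM in bone and 15.9, 22.9 and 22.9 CPM in skin (log2 difference 1.09 ± 0.19). Modulators had 5 of 23 higher (21.7%) and 8 lower (34.8%), against 24.3% and 23.7% of all genes tested, or 9 and 4 by library size alone. Cpz, a carboxypeptidase that binds Wnt proteins, was at 19.999, 14.3 and 17.4 CPM in bone and 1164, 1459 and 1136 CPM in skin (log2 difference -6.18 ± 0.21, adjusted p = 3.12e-07). Sfrp2, a secreted Wnt-binding protein of dermal fibroblasts, was at 64.1, 72.9 and 22.5 CPM in bone and 1523, 1778 and 1931 CPM in skin (log2 difference -5.04 ± 0.46). Dkk3, a secreted dickkopf-family protein, was higher in bone, at 157, 195 and 168 CPM in bone and 20.6, 37.5 and 41.9 CPM in skin (log2 difference 2.38 ± 0.25). Among target genes 4 of 12 were higher (33.3%) and 3 lower (25%), against 24.3% and 23.7% of all genes tested, or 6 and 2 by library size alone. The higher count of target genes was 2 without bone 2, bone 3 or skin 2.

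Among BMP and TGF-beta ligands 9 of 20 were higher in bone and 5 lower. Tgfb1, the ligand stored in bone matrix, was at 73.2, 79.1 and 77.002 CPM in bone and 7.89, 10.9 and 15.7 CPM in skin (log2 difference 2.73 ± 0.23). Bmp5, a BMP of skeletal condensations, was at 38.98, 42.5 and 37.7 CPM in bone and 2.003, 3.81 and 3.50 CPM in skin (log2 difference 3.68 ± 0.25). Their inhibitors and feedback genes had 5 higher and 9 lower of 23, turning to 10 and 7 by library size alone. Chrdl1, a chordin-like BMP antagonist, was at 52.9, 50.4 and 47.4 CPM in bone and 483, 409 and 415 CPM in skin (log2 difference -3.12 ± 0.14). Fst, follistatin, which binds activin, was at 35.1, 27.4 and 25.95 CPM in bone and 150.3, 199 and 187 CPM in skin (log2 difference -2.60 ± 0.17). Nbl1, a BMP antagonist of the DAN family, was higher in bone, at 714, 667 and 681 CPM in bone and 215, 283 and 325 CPM in skin (log2 difference 1.32 ± 0.17).

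In the FGF list 11 of 26 tested members were higher in bone and 6 lower, or 12 and 4 by library size alone. Feedback genes went apart: Dusp6 was higher in bone, at 67.4, 59.4 and 64.7 CPM in bone and 8.67, 10.8 and 14.97 CPM in skin (log2 difference 2.48 ± 0.20). Spry2 was lower, at 48.4, 37.998 and 46.6 CPM in bone and 137, 127 and 153 CPM in skin (log2 difference -1.65 ± 0.14). Fgfr2, a receptor of bone-forming cells, was at 44.1, 68.7 and 44.6 CPM in bone and 16.2, 17.6 and 14.8 CPM in skin (log2 difference 1.69 ± 0.20). Hedgehog pathway genes counted 6 higher and 4 lower of 15, 8 and 1 by library size alone, and 6 and 7 in the fit with all 9 libraries. Boc, a ligand co-receptor, was at 274, 282 and 263 CPM in bone and 70.1, 93.2 and 70.5 CPM in skin (log2 difference 1.81 ± 0.15). Gli1, a direct target of the pathway, was at 33.2, 33.6 and 28.2 CPM in bone and 22.04, 29.7 and 31.8 CPM in skin (adjusted p = 0.394, groups overlapping). Notch pathway genes had 8 of 18 higher and 0 lower (median 0.73), with Notch3, the receptor of mural cells, at 58.02, 68.3 and 38.02 CPM in bone and 7.53, 12.3 and 9.63 CPM in skin (log2 difference 2.48 ± 0.26).

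The retinoic acid list had 4 higher and 8 lower of 21, and 10 and 6 by library size alone. Aldh1a2, which makes retinoic acid, was at 73.04, 53.8 and 55.3 CPM in bone and 1.54, 1.66 and 0.933 CPM in skin (log2 difference 5.47 ± 0.26). Its relative Aldh1a1 was lower in bone, at 9.03, 5.57 and 8.32 CPM in bone and 67.1, 72.4 and 97.8 CPM in skin (log2 difference -3.37 ± 0.23). The binding protein Crabp2, which carries retinoic acid to its receptor, was at 36.1, 33.4 and 53.8 CPM in bone and 0.933, 0.626 and 0.654 CPM in skin (log2 difference 5.79 ± 0.28). Crabp1, which holds it in the cytoplasm, was low in both, at 0.362, 0.306 and 0.488 CPM in bone and 1.87, 2.72 and 2.37 CPM in skin, with its call lost without skin 2 (adjusted p = 0.0544).

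IGF genes split by member, 6 higher and 5 lower of 17, or 9 and 4 by library size alone. The higher count was 3 without bone 1 or bone 3. Igfbp5, a binding protein of bone matrix, was at 8146, 8892 and 8021 CPM in bone and 2587, 3214 and 2271 CPM in skin (log2 difference 1.63 ± 0.17). Igfbp6, which prefers IGF2, was at 362, 327 and 282 CPM in bone and 1401, 1657 and 1959.6 CPM in skin (log2 difference -2.37 ± 0.18). Pappa, a protease that frees IGF from binding proteins, was at 24.1, 19.9 and 27.2 CPM in bone and 0.456, 0.639 and 0.322 CPM in skin (log2 difference 5.66 ± 0.31). Igf1 was at 779, 764 and 779 CPM in bone and 461, 402 and 269 CPM in skin (log2 difference 1.04 ± 0.19). Imprinted growth genes were lower in bone in 15 of 22 members and higher in 1 (median -1.35), and 11 and 3 by library size alone. Slc38a4, an amino acid transporter, was at 7.42, 10.5 and 5.54 CPM in bone and 156, 119 and 82.1 CPM in skin (log2 difference -3.93 ± 0.32). The noncoding gene H19 was at 437, 512 and 258 CPM in bone and 2802, 2732 and 579 CPM in skin (log2 difference -2.34 ± 0.58), a call lost without skin 1 (adjusted p = 0.0506). Skin 3 held the least H19 of the skin libraries and the least Igf2, which was at 723, 762 and 629 CPM in bone and 469, 675 and 117 CPM in skin and did not pass the test. The higher count was 2 without bone 1. Without skin 3, 16 imprinted genes were lower and 1 higher.

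Integrin subunits leaned to bone, with 15 of 25 higher and 3 lower (median 2.11), or 19 and 0 by library size alone. The lower count was 1 without skin 2. The list takes in subunits of leukocytes, such as Itgam (CD11b), and the part of blood cells in its counts and median was not tested. Itga6, a laminin receptor chain, was at 199, 142 and 173 CPM in bone and 1.51, 0.980 and 1.75 CPM in skin (log2 difference 6.92 ± 0.26, adjusted p = 5.03e-07). Itga10, a collagen receptor chain of chondrocytes, was at 38.5, 45.9 and 36.7 CPM in bone and 2.11, 1.43 and 1.33 CPM in skin (log2 difference 4.63 ± 0.23). The shared partner Itgb1 was at 788, 698 and 762 CPM in bone and 675, 582 and 595 CPM in skin and did not pass the test (adjusted p = 0.108). Semaphorins, slits, netrins and their receptors had 21 of 45 higher and 8 lower (median 0.91), or 28 and 4 by library size alone. Sema3a, a repulsive ligand that osteoblasts secrete, was at 171, 126 and 139 CPM in bone and 28.1, 17.4 and 18.5 CPM in skin (log2 difference 2.77 ± 0.21), its co-receptor relative Nrp2 at 91.1, 94.3 and 79.1 CPM in bone and 12.9, 15.5 and 14.3 CPM in skin (log2 difference 2.63 ± 0.14). Sema3b was lower in bone, at 33.2, 31.8 and 27.5 CPM in bone and 371, 422 and 328 CPM in skin (log2 difference -3.60 ± 0.16). Of 16 tested cadherins 4 were higher (25%) and 4 lower (25%), near the 24.3% and 23.7% of all genes tested, or 7 and 4 by library size alone. Cdh11, the cadherin of osteoblasts and synovial lining, was at 296, 371 and 270.0 CPM in bone and 109, 103 and 144 CPM in skin (log2 difference 1.40 ± 0.18). Cdh13, a cadherin held by a lipid anchor, was at 274, 223 and 242 CPM in bone and 20.6, 34.8 and 37.9 CPM in skin (log2 difference 2.99 ± 0.23).

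Surface genes used to sort or describe mesenchyme gave 7 higher and 11 lower of 26, and 15 and 7 by library size alone. Ly6a, which encodes the sorted protein, was at 305, 226 and 256 CPM in bone and 630.4, 737 and 1284 CPM in skin (log2 difference -1.75 ± 0.27). The shared receptors Pdgfra and Pdgfrb were at 751, 658 and 663 CPM in bone and 720.1, 645 and 808 CPM in skin and at 246, 273 and 243 CPM in bone and 193, 238 and 287 CPM in skin, with overlapping groups and adjusted p-values of 0.714 and 0.69, and by library size alone both were higher in bone. Cd248, a sialomucin of fibroblasts also called endosialin, was at 494, 442 and 364 CPM in bone and 4136, 3841 and 3596 CPM in skin (log2 difference -3.15 ± 0.17). Thy1, a surface marker of many fibroblasts, was at 238, 259.7 and 179 CPM in bone and 984, 1022 and 1010.0 CPM in skin (log2 difference -2.16 ± 0.17). Cd44, the hyaluronan receptor, was higher in bone, at 528, 408 and 686 CPM in bone and 173, 259 and 216 CPM in skin (log2 difference 1.32 ± 0.22). S100a4, a calcium-binding protein of fibroblasts and leukocytes, was at 450.1, 333 and 468 CPM in bone and 36.04, 29.5 and 30.8 CPM in skin (log2 difference 3.70 ± 0.18).

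Heat shock genes were lower in bone in 14 of 16 members and higher in 0 (median -1.41), and by library size alone in 9 and 0. Hspa1a, an inducible chaperone, was at 40.6, 38.8 and 55.6 CPM in bone and 591, 690.3 and 797 CPM in skin (log2 difference -3.94 ± 0.20). Its near-identical copy Hspa1b was at 34.1, 37.4 and 43.5 CPM in bone and 604, 681 and 844 CPM in skin (log2 difference -4.21 ± 0.19), and reads may be split between both copies. Cryab, a small heat shock protein, was at 31.4, 35.3 and 33.6 CPM in bone and 179, 192 and 202 CPM in skin (log2 difference -2.51 ± 0.12). Hspa5, the chaperone of the endoplasmic reticulum, was at 906, 847 and 1205 CPM in bone and 1302, 1204 and 1257 CPM in skin, with overlapping groups and an adjusted p of 0.108, passing as lower in bone without bone 3 (adjusted p = 0.0297) and in DESeq2 (adjusted p = 0.0422). The part of the preparation in these values was not tested.

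The promoters of Hspa1a and Hspa1b are shown because both were lower in bone and had the lowest log2 differences of the list. Their 250 upstream bases match at 247 positions and differ at 3. The letters GAANNTTC, a pair of heat shock element half-sites searched on both strands and chosen after values were seen, are in capitals. The Hspa1a stretch lies at chr17:34972157-34972406 and the Hspa1b stretch at chr17:34959239-34959488, both on the minus strand of GRCm38.p6 (RefSeq).
Hspa1a: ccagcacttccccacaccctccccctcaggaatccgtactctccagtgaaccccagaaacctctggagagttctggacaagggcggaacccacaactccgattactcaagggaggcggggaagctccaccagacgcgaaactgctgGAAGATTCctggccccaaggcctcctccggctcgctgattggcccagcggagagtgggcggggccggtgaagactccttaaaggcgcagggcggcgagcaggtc
Hspa1b: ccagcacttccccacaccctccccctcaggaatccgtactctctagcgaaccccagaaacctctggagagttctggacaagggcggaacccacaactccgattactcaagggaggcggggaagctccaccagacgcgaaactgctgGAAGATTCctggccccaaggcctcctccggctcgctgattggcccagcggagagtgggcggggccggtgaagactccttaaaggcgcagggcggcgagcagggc
These letters were found in 6 of 18 promoters, from 12 genes of the heat shock list (33.3%), and in 6.69% of all promoters of the same length. The 6 are those of Dnaja1, Hspa1a, Hspa1b, Hspb1, Hspd1 and Hspe1, and the near-identical Hspa1a and Hspa1b windows are not independent matches.

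Immediate early genes did not move as 1 block. Of 32 members 9 were higher in bone and 17 lower (median -0.62), turning to 12 and 10 by library size alone. Nr4a2, an orphan nuclear receptor, was at 237, 233 and 332 CPM in bone and 9.86, 9.999 and 6.07 CPM in skin (log2 difference 4.95 ± 0.25). Rgs2, an inhibitor of G protein signalling, was at 52.2, 53.1 and 67.8 CPM in bone and 4.95, 4.39 and 6.41 CPM in skin (log2 difference 3.46 ± 0.20). Jund and Jun, subunits of AP-1, were at 395, 354 and 352 CPM in bone and 1166, 1717 and 1944 CPM in skin and at 1120.0, 979.6 and 956 CPM in bone and 2282, 2404 and 2552 CPM in skin (log2 differences -2.13 ± 0.20 and -1.24 ± 0.14). Myc, a growth regulator, was at 169, 133 and 151 CPM in bone and 447, 477 and 615 CPM in skin (log2 difference -1.76 ± 0.17). Fos, their partner, was at 3321, 2958 and 3003 CPM in bone and 2154, 2194 and 2753 CPM in skin and did not pass the test (adjusted p = 0.0628), but passed as higher in bone without skin 3 (adjusted p = 0.0135), in DESeq2 (adjusted p = 0.0183) and with upper quartile factors (adjusted p = 0.0458). The cyclic AMP response element TGACGTCA was found in 3 of 34 promoters of the list (8.82%), those of Btg2, Dusp1 and Maff, against 1.55% of all promoters, in the same window on both strands.

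Inflammatory mediators were lower in bone in 14 of 25 members and higher in 3 (median -0.98), and 8 and 5 by library size alone. Ccl2, which draws monocytes, was at 66.5, 29.1 and 105 CPM in bone and 569, 860.0 and 1146 CPM in skin (log2 difference -3.68 ± 0.50). Cxcl10, an interferon-induced chemokine, was at 23.2, 28.7 and 18.6 CPM in bone and 339, 351 and 532 CPM in skin (log2 difference -4.11 ± 0.24). Among chemokine ligands 4 of 27 were higher and 9 lower (5 and 7 by library size alone), with the higher count at 2 without skin 1 or skin 2, and Cx3cl1, a membrane-held chemokine, was higher in bone, at 24.4, 35.1 and 27.3 CPM in bone and 0.509, 1.21 and 1.18 CPM in skin (log2 difference 4.91 ± 0.36). Inflammatory members higher in bone were Il1b, Il1rn and Lcn2, all genes of neutrophils and other myeloid cells, with Il1rn losing its call without bone 2, bone 3, skin 1 or skin 2 (adjusted p 0.0527 to 0.0627). Lcn2 was at 134, 141 and 198 CPM in bone and 0, 0.0136 and 0.322 CPM in skin (log2 difference 10.37 ± 0.79). Of 25 complement genes 6 were higher (24%) and 7 lower (28%), near the 24.3% and 23.7% of all genes tested, and 10 and 6 by library size alone. C3, the central component, was at 808, 528 and 594 CPM in bone and 1597, 2532 and 3309 CPM in skin (log2 difference -1.95 ± 0.28).

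Interferon response genes were lower in bone in 21 of 28 members and higher in 0 (median -1.46), and in 10 by library size alone. Skin 3 stood above the other skin libraries in this list, with summed levels of 647, 709 and 591 CPM in bone and 1299.8, 1426 and 3256 CPM in skin. Oasl2, an antiviral gene, was at 18.8, 27.1 and 20.3 CPM in bone and 86.01, 77.2 and 289.6 CPM in skin (log2 difference -2.78 ± 0.53). Irf1, an interferon regulatory factor, was at 208, 185 and 188 CPM in bone and 445, 529 and 661 CPM in skin (log2 difference -1.49 ± 0.17). Without skin 3 the list gave 20 lower and 1 higher with a median of -0.86, and 13 without bone 3 lower. Genes of MHC class I processing went the same way, with 14 of 18 lower and 2 higher (3 and 3 by library size alone, the lower count being 8 without bone 1 or bone 3 and the higher count 0 without bone 1, bone 2, skin 1 or skin 2 and 1 without bone 3 or skin 3). B2m, the light chain of MHC class I, was at 519, 588 and 478 CPM in bone and 776, 965 and 2594 CPM in skin (log2 difference -1.45 ± 0.43), highest in skin 3, with the call lost without any 1 bone library (adjusted p 0.0632 to 0.0795). H2-K1, a heavy chain whose reads may be shared with its relatives, was at 134, 161 and 142 CPM in bone and 336, 384 and 589.6 CPM in skin (log2 difference -1.58 ± 0.21).

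Cell cycle genes were higher in bone in 9 of 31 members and lower in 1 (median 0.51), where 24.3% of all genes were higher and 23.7% lower. By library size alone the counts were 15 and 0, and with 1 library left out the higher count moved to 5 without skin 2 and the lower count to 2 without skin 3. Mki67, a protein of dividing cells, was at 149, 173 and 191 CPM in bone and 68.01, 31.2 and 11.7 CPM in skin (log2 difference 2.21 ± 0.55), a call lost without skin 2 (adjusted p = 0.0582). The skin libraries ranged widely, and summed levels were 786, 949 and 1015 CPM in bone and 760.1, 544 and 273 CPM in skin. Genes of hypoxia and glycolysis were even, 5 higher and 5 lower of 32 (median 0.01), and 20 and 3 by library size alone. Epas1, the hypoxia factor of vessels and stroma, was at 106, 80.7 and 66.9 CPM in bone and 6.15, 11.03 and 14.2 CPM in skin (log2 difference 3.02 ± 0.32).

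Markers of blood cells were found in the bone libraries despite the sort. Of 25 myeloid and neutrophil markers 19 were higher in bone and 1 lower (0 without skin 3; median 4.27), and the list summed to 3693, 3119.7 and 4251 CPM in bone and 96.5, 69.4 and 190.2 CPM in skin. Members of this list were among the largest differences of all genes: Ngp, a granule protein, was at 774, 702 and 843 CPM in bone and 0.0424, 0 and 0.0858 CPM in skin, and Elane, neutrophil elastase, at 42.9, 31.6 and 60.2 CPM in bone with 0 reads in skin, at least 3808-fold higher. B cell markers were higher in 14 of 15 and lower in 1 (0 without bone 1 or bone 2; 0 by library size alone). The B cell list summed to 249, 334 and 295 CPM in bone and 118, 107 and 125 CPM in skin. Nearly all of the skin sum was Ebf1, a factor that stromal cells share, at 86.4, 87.7 and 90.4 CPM in bone and 117, 106 and 123 CPM in skin. Ebf1 was lower in bone here, with the sign turned by library size alone (adjusted p = 0.0656). Its call was lost without bone 1 or bone 2 (adjusted p = 0.0542 and 0.055) and in the fit with all 9 libraries (adjusted p = 0.0873). Erythroid and megakaryocyte markers counted 9 higher and 0 lower of 14, mast cell and basophil markers 5 and 0 of 9, T cell markers 3 and 2 of 8 (lower 1 without bone 3, skin 1 or skin 2) and osteoclast markers 3 and 1 of 7. By library size alone T cell markers counted 5 and 2 and osteoclast markers 4 and 0, and with all 9 libraries T cell markers 6 and 2. The T cell list takes in Thy1, the fibroblast marker given above, which was lower in bone. Thy1 made up most of the T cell list's summed level in skin of 993, 1029 and 1024 CPM.

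Of 7 genes for antibody targets of the sort 5 were higher in bone and 1 lower. Ptprc, the gene of CD45, was at 69.4, 69.4 and 76.2 CPM in bone and 2.14, 0.449 and 1.05 CPM in skin (log2 difference 5.86 ± 0.50). Itgam, the gene of CD11b, was at 75.6, 60.5 and 69.4 CPM in bone and 3.82, 2.000 and 4.81 CPM in skin (log2 difference 4.27 ± 0.31). Epcam was higher in skin, at 0, 0.105 and 0.346 CPM in bone and 2.36, 1.97 and 4.92 CPM in skin (log2 difference -4.36 ± 1.24), a call lost without bone 2 or skin 3 (adjusted p = 0.0629 and 0.054). Pecam1, the gene of CD31, was at 12.1, 12.6 and 14.3 CPM in bone and 3.90, 5.65 and 7.23 CPM in skin (log2 difference 1.22 ± 0.26). Itga2b, the gene of CD41, was at 19.1, 10.98 and 22.7 CPM in bone and 17.4, 18.3 and 13.9 CPM in skin with overlapping groups. Lcn2, Il1b, Mmp8, Mmp9 and S100a4, which leukocytes also express, were higher in the same libraries as the myeloid, B cell and red cell markers, and the part of those cells in each result was not tested. Nor was it tested for Tgfb1, Cd44, Pecam1, the integrin subunits or the cell cycle genes. Counted at 0 reads in all 3 skin libraries were 5 of 15 B cell markers, 1 of 25 myeloid markers and 5 of 19 erythroid and megakaryocyte markers, and in all 3 bone libraries 0 of 25 myeloid and 0 of 15 B cell markers.

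Skin libraries held markers of the hair follicle and epidermis. Of 20 hair follicle keratin and inner root sheath markers 18 were lower in bone and 0 higher, with a median of -11.12, or -8.65 with genes at 0 reads set to their bound. Krt27, a keratin of the inner root sheath, was at 24.1, 26.6 and 66.4 CPM in skin with 0 reads in bone, at least 4429-fold lower. The list summed to 16.2, 12.8 and 15.1 CPM in bone and 262, 257 and 923 CPM in skin, highest in skin 3. Epidermal keratinocyte markers were lower in bone in 17 of 18 (higher in 0), with Krt14, a keratin of basal cells, at 0.0181, 0.0161 and 0 CPM in bone and 3.14, 5.56 and 8.86 CPM in skin, and summed to 7.66, 11.01 and 11.8 CPM in bone and 104, 102 and 310.3 CPM in skin. Skeletal muscle markers were lower in 9 of 13 (5 without skin 1 or skin 2; 7 by library size alone) and Schwann cell and melanocyte markers in 6 of 15, with 3 higher, turning to 3 and 5 by library size alone. Dct, an enzyme of melanin synthesis, was at 1.06, 1.46 and 4.37 CPM in skin with 0 reads in bone. In all 3 bone libraries 4 of 19 keratinocyte markers, 12 of 21 skeletal muscle markers and 5 of 19 Schwann cell and melanocyte markers were at 0 reads, against 0, 3 and 0 in the skin libraries. The part of those cells in the results was not tested.

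**Figure D5:**
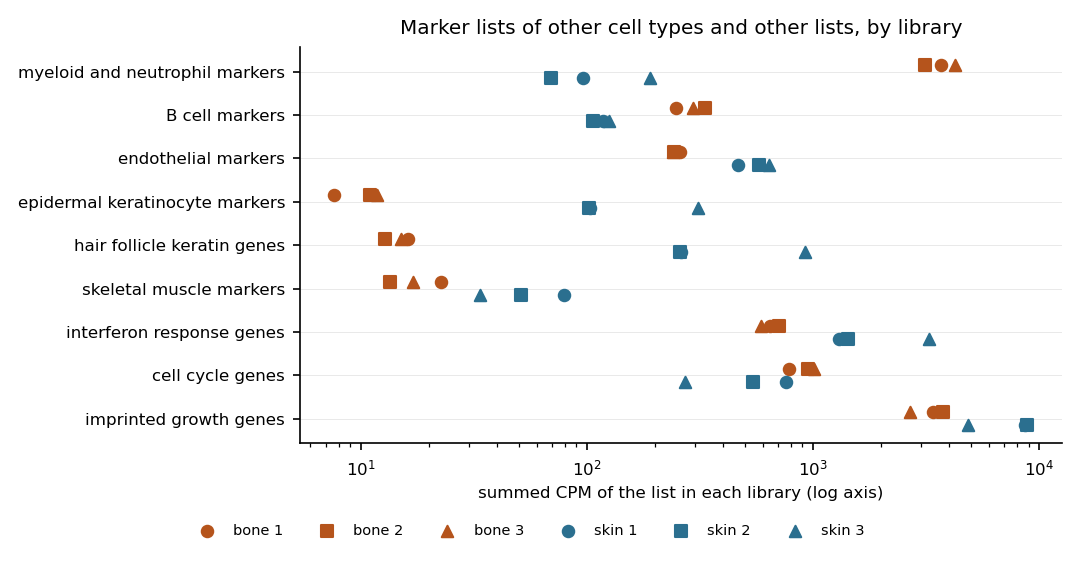
Summed CPM of gene lists in each library on a log axis, bone in orange and skin in blue, with circles, squares and triangles for libraries 1, 2 and 3. Myeloid and B cell sums are higher in all bone libraries, keratin and keratinocyte sums in all skin libraries, and skin 3 (blue triangle) is the highest library for keratin and interferon lists and the lowest for cell cycle genes. Nearly all of the B cell sum in skin is Ebf1, which stromal cells share.

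Endothelial and mural markers were mixed. Endothelial markers counted 4 higher (20%) and 5 lower (25%) of 20, near the 24.3% and 23.7% of all genes tested, or 6 and 3 by library size alone. Kdr, the VEGF receptor of endothelium, was at 1.803, 4.34 and 4.29 CPM in bone and 30.2, 35.4 and 45.2 CPM in skin (log2 difference -3.41 ± 0.35). Pecam1 went the other way, as given above. The list summed to 259.8, 243 and 242 CPM in bone and 465, 576 and 641 CPM in skin. Mural markers counted 5 higher (29.4%) and 3 lower (17.6%) of 17, against 24.3% and 23.7% of all genes tested, or 8 and 3 by library size alone. Rgs5 and Cspg4, pericyte genes, were higher in bone, at 59.9, 69.7 and 73.4 CPM in bone and 0.986, 0.490 and 0.418 CPM in skin and at 209, 178 and 209.7 CPM in bone and 14.7, 17.1 and 9.72 CPM in skin (log2 differences 6.73 ± 0.33 and 3.85 ± 0.22). Kcnj8, a potassium channel subunit also used as a pericyte marker, was lower in bone, at 4.44, 6.23 and 4.28 CPM in bone and 99.9, 88.8 and 53.7 CPM in skin (log2 difference -4.02 ± 0.27). The part of vessel cells in these results was not tested.

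The widest differences of all came from several of these groups. Among the 15 largest toward bone by the naming rule were Ibsp, Prg2, Elane, Col10a1, Ngp, Chi3l3, Mmp13, Clec3a, Retnlg, Epx, Ltf, Cd177, Col22a1 and S100a9, of which 5 are skeletal matrix genes or enzymes (Ibsp, Col10a1, Mmp13, Clec3a and Col22a1) and the others named are genes of blood cells. The 15 lowest were Krt27, Zic1, Krt71, Krt73, Akr1c18, Krt28, Irx1, Krt20, Creb3l3, Bmp7, Krt25, Ano3, Sprr1a, Nrcam and Adam23, of which 7 are keratin or cornified envelope genes. Akr1c18, a steroid-metabolising reductase, was at 0.0544, 0.925 and 0.213 CPM in bone and 720.1, 622 and 704 CPM in skin. Nrcam, a neural cell adhesion molecule, was at 0.870, 1.24 and 0.834 CPM in bone and 83.3, 86.9 and 89.7 CPM in skin (log2 difference -6.46 ± 0.20). Adam23, a membrane protein without protease activity, was at 5.17, 3.34 and 0.935 CPM in bone and 235, 226 and 281 CPM in skin (log2 difference -6.29 ± 0.60). Genome positions in mm10, as the deposited tables give them, are chr1:150449412-150466165 for Prg4, chr8:70373548-70382066 for Comp, chr10:34389981-34397085 for Col10a1, chr6:52242106-52245242 for Hoxa11, chr17:29318882-29328902 for Pi16, chr5:134702596-134747254 for Eln, chr9:91360345-91365799 for Zic1 and chr2:172869687-172940293 for Bmp7.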

How the data were processed

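RNA of sorted SCA1+ cells was measured by RNA-seq in 3 bone and 3 skin libraries, grouped by their titles. The deposited tables give raw read counts per gene symbol, and per the submitters' processing notes CASAVA 1.8.2, HTSeq 0.5.4 and the mm10 build were used. Aligner, annotation and strand mode remain not given in the sources used here. RPKM values were also deposited by the authors and were used for levels per length and for alternative tests. A signal column was deposited as well. Its signal values were made by the authors before deposit, with read bases summed over a gene, and are not reported here. Summary lines of the deposited count tables (13.2% to 14.8% of reads in bone, 5.05% to 5.98% in skin) name no gene and were left out.

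Counts were scaled with TMM factors (1.24 to 1.31 in bone, 0.755 to 0.816 in skin) and filtered with filterByExpr, and 14891 of 23420 genes were tested with edgeR 4.0.16 (glmQLFit, robust, and glmQLFTest, R 4.3.3) at a Benjamini-Hochberg adjusted p of 0.05 over all genes tested. SEs are approximate. A gene at 0 reads in a tissue was given a bound from 3 reads over its libraries, 0.00901 CPM in bone and 0.0115 CPM in skin, and intervals and bounds cover counting error only. On simulated counts of bone against skin (14647 genes, 200 changed) 44% of 2-fold and 68% of 4-fold changes were recovered, with 11 false calls. The simulation changed far fewer genes than were called here and held no shift in composition between the tissues. These figures check that the code runs as intended and do not give the recovery in the real comparison.

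The comparison, the gene lists and their members were chosen with earlier results of these data known, so lists are described by counts and medians without a test. Genes that could be named were the 15 largest and 15 lowest called differences that reach 20 CPM in 1 tissue with groups that do not overlap, per list up to 4 called members a direction by p and 3 by level, the antibody targets and key members. Any Hox or collagen gene could be added to complete an order of levels. Not every gene that met this rule is named. Alternatives were other scalings, filters, limma 3.58.1 on log2 RPKM plus 1 or 0.1, DESeq2 1.42.0, a replicate block, a fit with all 9 libraries and leaving out each library. Promoters came from RefSeq on GRCm38.p6. Some listed genes were not analysed here, and some values are not reported here.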

Additional observations from a re-analysis of the deposited data

How the results depend on the processing

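Scaling was the choice that moved the counts most. By library size alone 7297 genes were higher in bone and 1349 lower (4865 and 770 by at least 2-fold), against 3625 and 3534. With library sizes that leave out the 3 collagens 2045 were lower (1063 by at least 2-fold) and 5368 higher. In limma on the authors' RPKM, which carry no composition correction, counts were 5960 higher and 1539 lower with 1 added (580 lower by at least 2-fold), 5942 and 1526 with 0.1 added (688), and 6523 and 1661 with 1 added and no filter (602). The share higher among called genes was 50.6%, then 84.4% by library size alone, 72.4% without the collagens and 79.5% to 79.7% in RPKM. The median shift per gene from the TMM fit, over genes in both fits, was 0.68, 0.38 and 0.48 to 0.54 in these settings. Pdgfra turned from -0.07 to higher in bone, at 0.61 by library size alone, and in RPKM at 0.47 with 1 added, 0.48 with 0.1 added and 0.47 with 1 added and no filter. Ebf1, called lower in bone at -0.39, had 0.29, 0.14, 0.14 and 0.14 in the same order.

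The other settings kept both counts within 1.5 times: DESeq2 gave 3834 and 3766, all 9 libraries 3702 and 3661, RLE factors 3588 and 3598, and leaving out 1 library 2896 to 3535 higher and 2901 to 3438 lower. Replicate numbers 1 to 3 are shared by the tissues, but no label says that they mark a pair, and deviations of same-numbered libraries from their tissue means correlated across genes at r of -0.034, -0.028 and -0.0018. A replicate block gave 3195 higher and 3157 lower. Of the genes named, it changed the calls of Wif1 (higher in bone, adjusted p = 0.0167) and Sost (not called, adjusted p = 0.169). Depth, at 78757872 or more gene reads, sets a bound only for genes at or near 0 reads, and 3 libraries a tissue limit the precision of the rest.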
